A study of Homo sapiens
Mus musculus and Homo sapiens with 2 samples.

Results

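The genes described are the core of cellular iron handling: ferritin light and heavy chain (FTL and FTH1), the transferrin receptor (TFRC), the iron exporter ferroportin (SLC40A1), the iron sensors IREB2 and ACO1, the ferritin cargo receptor NCOA4 and heme oxygenase 1 (HMOX1). They were chosen by symbol with earlier results of these data known, and all 8 were found among the 43167 genes of the A549 annotation. The study measured newly made and total RNA in single cells by labelling RNA with 4-thiouridine (S4U), a uridine analog that iodoacetamide makes readable as base changes. A549, an established human lung adenocarcinoma line, received 100 nM dexamethasone, a synthetic glucocorticoid, for 2, 4, 6, 8 or 10 h, and the 0 h control received the same volume of ethanol. Every A549 culture, control included, had 200 µM S4U for its last 2 h. A second label of the sample gives the dose as 101 nM. The second sample mixed HEK293T (human, from embryonic kidney) with NIH/3T3 (mouse fibroblasts). Its label also lists dexamethasone, which the treatment protocol gives for A549 only, so it was taken here as untreated, though the labels disagree. Its labelled part had 200 µM S4U for 6 h, and other parts lacked S4U, iodoacetamide or both. There was 1 culture per time, so p-values below measure only the spread between these cultures, which the tests estimate for each gene partly from all genes. The tests also take the single 0 h culture to be as variable as the treated cultures.

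Ferritin stores iron inside a shell built of heavy chains, which oxidize iron, and light chains, which help the mineral core to form. Transferrin-bound iron enters through the transferrin receptor, ferroportin exports iron, NCOA4 carries ferritin to the lysosome for release, and heme oxygenase frees iron from heme. When iron is scarce, the proteins of ACO1 and IREB2 bind a short RNA hairpin, the iron responsive element, which blocks translation of ferritin and ferroportin mRNA and stabilizes transferrin receptor mRNA. This control acts on messages after they are made, while ferritin and heme oxygenase genes are also transcribed under the antioxidant factor NRF2.

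Hairpin sequences are shown because the members differ in whether their messages hold letters that fit this element. Sequences are from GENCODE v29 transcripts of the GRCh38 build, with 1 transcript per gene matched by symbol and positions counted from the transcript start. The deposited counts use hg19, so no genome positions are given. The search, on the transcript strand, was for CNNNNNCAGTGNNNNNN, with the 5 bases after the first C able to pair with the last 5 (G with T allowed). Capitals mark the loop letters. FTL, FTH1 and SLC40A1 each had 1 match in the 5′ UTR, at positions 35 to 63, 59 to 87 and 199 to 227. TFRC had 4 matches in its 3′ UTR, starting at 3388, 3792, 3857 and 3904.
FTL: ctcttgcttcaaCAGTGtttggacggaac
FTH1: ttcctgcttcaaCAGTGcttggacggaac
SLC40A1: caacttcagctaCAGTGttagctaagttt
TFRC, start 3388: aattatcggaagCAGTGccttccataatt
TFRC, start 3792: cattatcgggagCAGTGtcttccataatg
TFRC, start 3857: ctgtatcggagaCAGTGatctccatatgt
TFRC, start 3904: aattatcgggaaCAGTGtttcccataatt

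The FTL and FTH1 stretches had the same base at 26 of 29 positions. No match was found in the UTRs of ACO1, IREB2, NCOA4 or HMOX1. Of 13300 5′ UTRs of at least 100 bases, 21 (0.158%) held a match. Of 3210 3′ UTRs at least as long as that of TFRC, read over its length of 2658 bases, 23 (0.717%) held any match and 2 (0.0623%) held at least 3. The UTRs of FTL, FTH1, SLC40A1 and TFRC are among those counted. The pattern describes the known element, so matches in the messages it is known to control were foreseen and are no test. A match describes letters only, and binding was not measured.

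The A549 cultures held 1045 to 1446 cells, 28870594 to 43084614 whole counts and 5865326 to 9718958 new counts, and new counts were 20.3 to 22.6% of whole counts. Whole minus new counts are called pre-existing RNA. Levels are CPM, the counts of a gene per 1000000 counts of the same kind of RNA in that culture. All 11 of 11 genes of the A549 epithelial list had counts, with a summed whole level of 19342 CPM at 0 h and 19438 to 25654 CPM in treated cultures, although SFTPB, SFTPC and NKX2-1 had only 25, 20 and 18 counts in all. Summed markers of other cell types were low, and their part in the results was not tested: 32.8 CPM at 0 h and 23.8 to 31.1 CPM when treated for HEK293T, 12.9 against 7.86 to 14.7 CPM for fibroblasts, 10.2 against 7.59 to 10.6 CPM for macrophages and red cells, and 0.567 against 0.728 to 0.866 CPM for hepatocytes. No cell barcode was shared between the 2 samples (0 shared).

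In new RNA the ferritin chains moved in opposite directions under dexamethasone. In the fit, whose scaling differs from CPM, FTL, the light chain, fell to 0.455 of its 0 h level over the treated cultures. FTH1, the heavy chain, rose to 1.46 times. By CPM the treated cultures were at 0.403 to 0.467 of the 0 h level for FTL and at 1.35 to 1.44 times for FTH1. SLC40A1, the exporter, fell with FTL. In the edgeR quasi-likelihood test of the 5 treated cultures against 0 h, 1 of 8 members was higher and 2 were lower in new RNA. Of the 17507 genes tested, 6.0% were called, 3.82% higher and 2.18% lower. The median log2 fold was -0.01 over the members and 0.01 over all genes. In whole RNA 0 of 8 members passed, against 0.878% of 22894 genes (0.603% higher and 0.275% lower), and in pre-existing RNA 0 of 8, against 0.116% of 20624 genes. At an unadjusted p under 0.05, SLC40A1 and HMOX1 passed in whole RNA, where 12.8% of all genes did, and no member did in pre-existing RNA, where 8.0% of all genes did. DESeq2 also called 0 members in both. The comparisons share the 0 h culture and, for whole RNA, the counts themselves, so they are not independent of each other.

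New FTL RNA stood at 1943 CPM at 0 h and at 892, 809, 783, 821 and 908 CPM at 2, 4, 6, 8 and 10 h. The 0 h culture lay far above a narrow treated range, and nearly all of the difference was present at 2 h. The fitted log2 fold was -1.14 ± 0.09 (SE), 0.455 of the 0 h level (edgeR adjusted p = 0.000178). New RNA of all genes had the 0 h culture above the treated range in 32.1% of cases, so that position alone is common. Across 11 alternative settings the FTL fold ran from -1.21 to -1.11, with adjusted p from 1.28e-15 to 0.00152. Within the treated cultures new FTL RNA had a slope of 0.005 ± 0.013 log2 units per hour (edgeR adjusted p = 0.869).

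Whole FTL RNA fell later and over hours. Its level was 5664 CPM at 0 h, then 5292, 5192, 4401, 3988 and 4024 CPM. The 0 h and 2 h values lay close together and the lowest value, at 8 h, was 29.6% under 0 h. The test of treated against 0 h gave -0.28 ± 0.16 (edgeR adjusted p = 0.521), and the slope over the treated cultures was -0.057 ± 0.009 log2 units per hour (edgeR adjusted p = 0.00338). Pre-existing FTL RNA was 6645, 6414, 6310, 5454, 4871 and 4852 CPM in order of time. It too was nearly level up to 4 h and lower from 6 h, with a fold against 0 h of -0.23 ± 0.15 (edgeR adjusted p = 0.690).

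FTH1 ran the other way on the same timing. Its new RNA was at 362 CPM at 0 h and at 504, 523, 500, 489 and 510 CPM in the treated cultures. The treated values formed a plateau from 2 h onward, all above 0 h. The fitted log2 fold was 0.55 ± 0.09, or 1.46 times (edgeR adjusted p = 0.00558), and it stayed between 0.48 and 0.56 over 11 alternative settings (adjusted p from 0.000206 to 0.0251). In 19.0% of all genes the new RNA of the 0 h culture lay below every treated one. The slope of new FTH1 RNA over the treated cultures was -0.001 ± 0.010 log2 units per hour (edgeR adjusted p = 0.961).

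Whole FTH1 RNA climbed step by step. It was 1087 CPM at 0 h, then 1126, 1231, 1272, 1349 and 1461 CPM, each culture above the one before it in time. The 0 h culture was below all treated ones, as in 19.5% of all genes. The treated against 0 h fold was 0.27 ± 0.13 (edgeR adjusted p = 0.439) and the slope 0.045 ± 0.006 log2 units per hour (edgeR adjusted p = 0.00164). Pre-existing FTH1 RNA was 1279, 1285, 1412, 1496, 1589 and 1713 CPM, level until 2 h and then rising, with a fold of 0.25 ± 0.14 (edgeR adjusted p = 0.656).

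**Figure D1:**
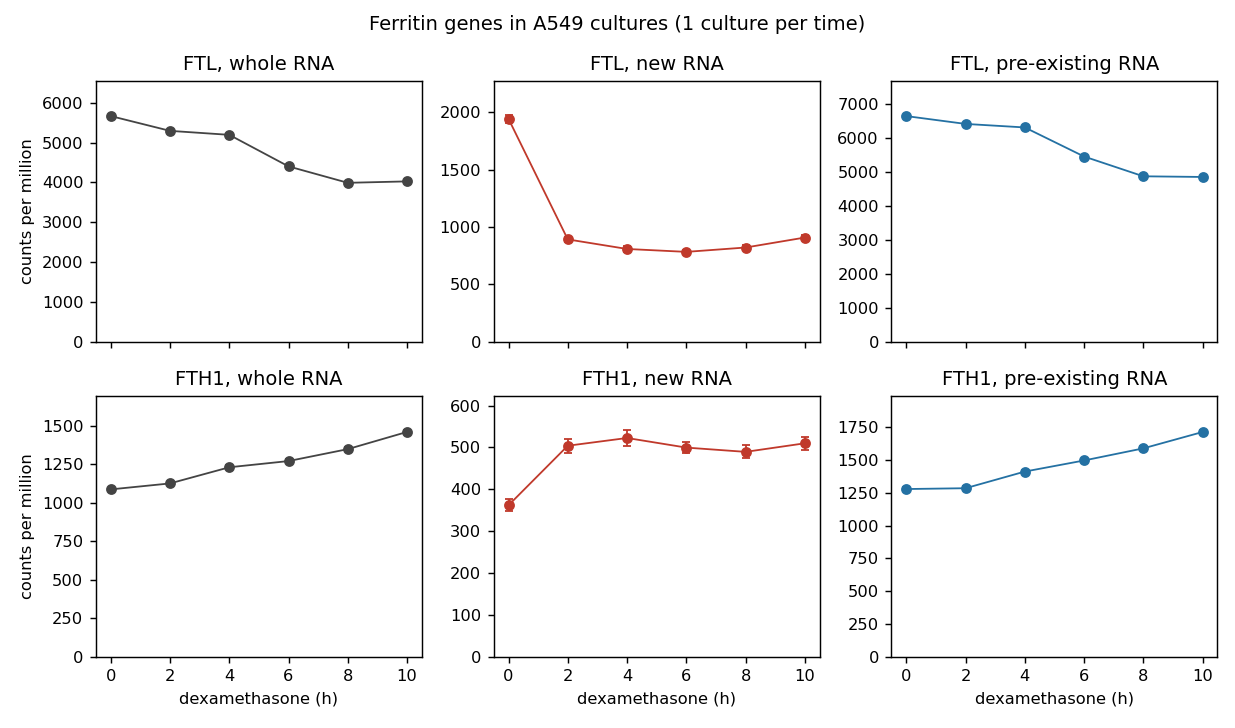
Levels of FTL (top) and FTH1 (bottom) in CPM of whole, new and pre-existing RNA against hours of dexamethasone, 1 point per A549 culture, with exact Poisson 95% intervals that cover counting error only. New FTL drops from 1943 to 892 CPM by 2 h and new FTH1 rises from 362 to 504 CPM, while whole RNA changes over the following hours.

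The slope test called 2 of 8 members rising and 1 falling in whole RNA, where 12.6% of 21493 genes were called (6.1% rising and 6.53% falling). In new RNA it called 1 of 8, rising, where 7.7% of 16366 genes were called (3.55% rising and 4.15% falling). FTL and FTH1 therefore passed against 0 h in new RNA and on the slope in whole RNA, and in neither case on the other test. Whether dexamethasone moved new RNA more than pre-existing RNA was tested with a term for each culture. FTL gave -0.87 ± 0.17 (edgeR unadjusted p = 0.000188, adjusted p = 0.230), FTH1 0.33 ± 0.14 (adjusted p = 0.894) and SLC40A1 -0.59 ± 0.27 (adjusted p = 0.910). No gene of 22440 passed edgeR in that comparison (0.0%), 1216 genes (5.42%) had an unadjusted p under 0.05, and DESeq2 called 19. The FTL difference passed with DESeq2 (adjusted p = 0.0132), with no low-count filter (8.82e-15) and without the 2 h culture (0.0456).

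The balance of the ferritin messages can be followed within each library as FTL counts per FTH1 count. A count ratio is not a ratio of molecules, since capture may differ between the genes, but it can be compared between cultures. In new RNA the ratio was 5.37 at 0 h and 1.77, 1.55, 1.57, 1.68 and 1.78 at 2 to 10 h. In whole RNA it was 5.21, 4.70, 4.22, 3.46, 2.96 and 2.75, and in pre-existing RNA 5.20, 4.99, 4.47, 3.64, 3.07 and 2.83. At 0 h new and whole RNA held nearly the same ratio, new RNA had shifted by 2 h, and whole RNA moved toward the new ratio at each later time without reaching it. With 1 culture against 5, an exact two-sided permutation test cannot give less than 0.167, which is what the new RNA ratio gave.

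**Figure D2:**
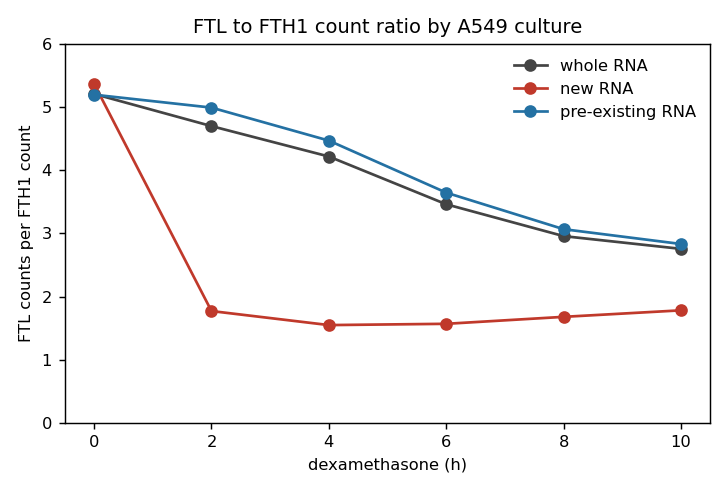
FTL counts divided by FTH1 counts against hours of dexamethasone in whole, new and pre-existing RNA, 1 point per A549 culture, with no error drawn. The new RNA ratio goes from 5.37 to 1.77 within 2 h, and the whole RNA ratio passes from 5.21 to 2.75 over 10 h.

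Both ferritin genes have near-identical processed copies elsewhere in the genome, to which reads could have been assigned. The 12 annotated FTLP copies held 0.0936% of the FTL whole counts, and the most abundant, FTLP3, had 859 counts. The 20 FTH1P copies held 1.27% of the FTH1 whole counts and 5.44% of its new counts, led by FTH1P10 with 828 whole counts. Of their 3477 whole counts 1206 were new, against 22159 of 273179 for FTH1 itself. FTH1P16 had the most new counts, 222 of 347. Whether this bears on the new counts of FTH1 was not tested. Summing the copies with their parent left the new RNA folds at -1.14 for FTL and 0.56 for FTH1, both past the threshold. The sources used here do not say how reads that match several copies were handled, so the split between a gene and its copies is uncertain.

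The ferritin shift was visible in the bulk of the cells. The median cell had 55.2 FTL counts per 10000 at 0 h (quartiles 44.1 and 70.2) and 39.7 at 10 h (29.4 and 51.0), and for FTH1 10.4 (7.37 and 13.8) and 14.0 (10.0 and 18.1). All 3 quartiles moved down for FTL and up for FTH1. Within cultures of 1045 to 1446 cells, Spearman's rho between the FTL and FTH1 levels of a cell was 0.36 to 0.51. The levels share each cell's total as denominator, and FTL itself had a rho of -0.22 to -0.15 with depth. For comparison, rho between FTL and TFRC was 0.06 to 0.17, but TFRC had fewer counts, with a median of 2.05 per 10000 at 0 h. Fewer counts can lower rho, and their part in this gap was not tested. FTL and FTH1 levels thus went together from cell to cell in each culture, while their culture levels went in opposite directions.

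SLC40A1, the only known exporter of iron from cells, was a low-count gene here, with 153 to 464 whole and 49 to 227 new counts per culture. Its new RNA was 32.5 CPM at 0 h and 17.6, 8.35, 12.4, 15.7 and 14.9 CPM at 2 to 10 h. The 0 h culture was the highest and the 4 h culture the lowest. The fitted log2 fold was -1.15 ± 0.27 (edgeR adjusted p = 0.0382), and the call was lost without the 6 h (adjusted p = 0.103), 8 h (0.0600) or 10 h (0.0502) culture, with folds of -1.25 to -1.03 over all alternatives. Whole SLC40A1 RNA was 13.8, 11.3, 5.30, 6.17, 7.86 and 8.20 CPM. It was also lowest at 4 h, with a fold of -0.80 ± 0.32 (edgeR adjusted p = 0.359) that passed only without the 2 h culture (-0.97, adjusted p = 0.0294). Pre-existing SLC40A1 RNA was 8.93, 9.73, 4.52, 4.35, 5.68 and 6.42 CPM, with the 0 h value inside the treated range.

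HMOX1, which opens the heme ring and releases its iron, showed a trough. New HMOX1 RNA was 62.5 CPM at 0 h and 42.4, 25.1, 32.3, 40.6 and 45.7 CPM in the treated cultures, a low at 4 h followed by higher values. Whole RNA was 44.8, 38.2, 26.8, 21.3, 25.3 and 31.5 CPM, with its low at 6 h. The 0 h culture was above every treated one in both, as it was for 27.0% of all genes in whole RNA and 32.1% in new RNA. The folds did not pass, at -0.67 ± 0.25 in new RNA (edgeR adjusted p = 0.177) and -0.62 ± 0.25 in whole RNA (0.361). They passed with no low-count filter in new RNA (0.0287) and without the 2 h culture in whole RNA (-0.74, 0.0371). The new RNA slope was 0.041 ± 0.031 log2 units per hour (edgeR adjusted p = 0.512) over all treated cultures and 0.144 (0.000712) without the 2 h culture. HMOX1 counts were concentrated in few cells: at 0 h the 12 cells (1%) with the most HMOX1 counts held 10.8% of its 1503 counts, while the 12 highest cells for ACO1 held 5.31% of a similar total of 1468.

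TFRC, the port of entry for transferrin iron, hardly varied. Its whole RNA was 225.6, 226.0, 226.0, 214.7, 213.3 and 219.6 CPM, a range of 1.06-fold across cultures. The fold against 0 h was -0.01 ± 0.07 (edgeR adjusted p = 0.975). New TFRC RNA was 122.4, 111.9, 96.5, 118.0, 116.0 and 117.9 CPM, with the 4 h culture lowest, and the fold was -0.06 ± 0.13 (edgeR adjusted p = 0.875).

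The sensors were also level. IREB2 encodes the iron regulatory protein that is itself degraded when iron is plentiful, and ACO1 the one that turns into the cytosolic aconitase when it holds an iron-sulfur cluster. Whole IREB2 RNA was 140.9, 139.6, 138.0, 146.1, 152.5 and 145.1 CPM, and new IREB2 RNA 236.5, 224.1, 230.2, 244.6, 243.2 and 231.4 CPM. The 0 h values lay inside the treated range, with folds of 0.06 ± 0.07 (edgeR adjusted p = 0.787) and 0.06 ± 0.09 (0.816). Whole ACO1 RNA was 43.8, 41.9, 42.1, 43.4, 42.0 and 41.4 CPM and new ACO1 RNA 28.2, 27.8, 25.4, 26.8, 24.8 and 31.7 CPM. The whole level at 0 h was the highest of the 6 by a small margin. The folds were -0.03 ± 0.07 (edgeR adjusted p = 0.909) and 0.03 ± 0.16 (0.960).

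NCOA4, the receptor that delivers ferritin to autophagy, passed only the slope test. Whole NCOA4 RNA was 114.8 CPM at 0 h and 108.0, 112.7, 120.5, 131.5 and 134.5 CPM at 2 to 10 h. The 2 h culture lay under 0 h and the later ones rose past it, with a slope of 0.044 ± 0.007 log2 units per hour (edgeR adjusted p = 0.00378). Its fold against 0 h was 0.11 ± 0.13 (adjusted p = 0.775). New NCOA4 RNA was 114.2, 97.8, 111.8, 120.1, 133.7 and 126.0 CPM, with a slope of 0.051 ± 0.013 (edgeR adjusted p = 0.0398). That call was lost with DESeq2 (0.0794) and without the 2 h (0.241), 4 h (0.0589), 6 h (0.0584) or 8 h (0.161) culture.

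**Figure D3:**
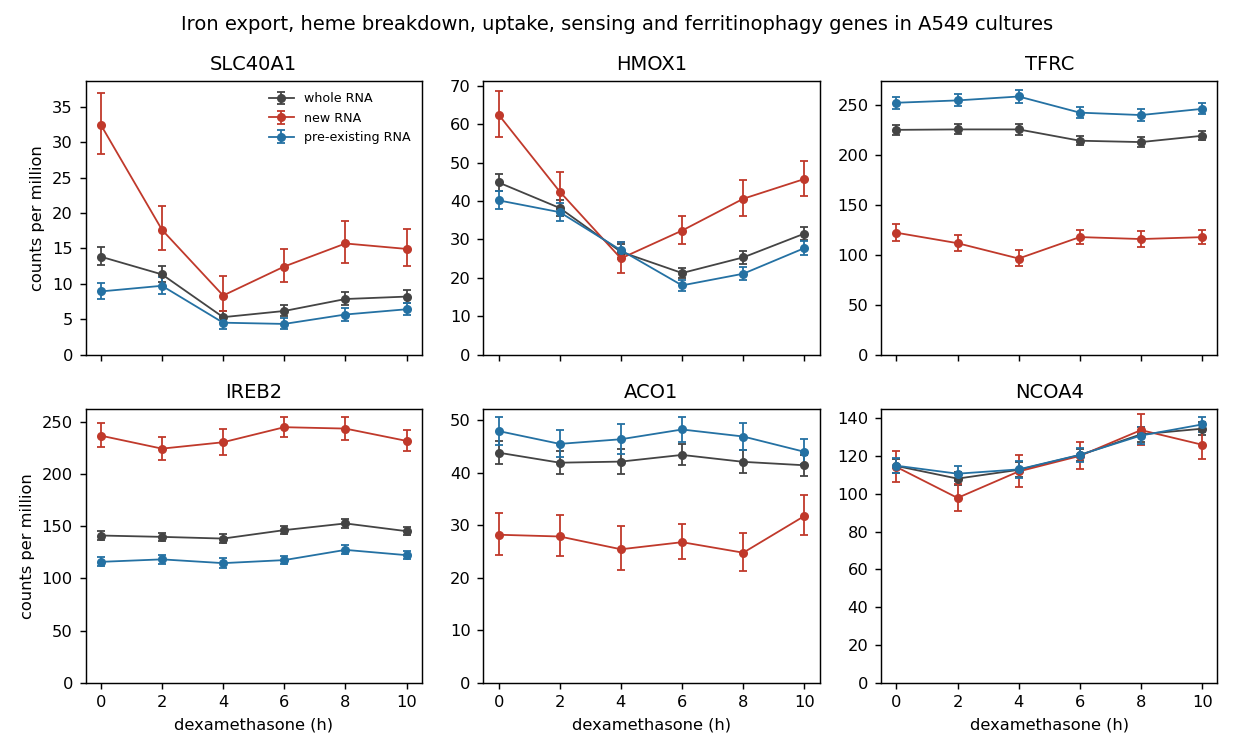
Levels of the other 6 members in CPM of whole, new and pre-existing RNA against hours of dexamethasone, 1 point per A549 culture, with exact Poisson 95% intervals for counting error only. SLC40A1 and HMOX1 have their highest new RNA at 0 h (32.5 and 62.5 CPM) and their lowest at 4 h, while TFRC, IREB2 and ACO1 stay nearly level.

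**Figure D4:**
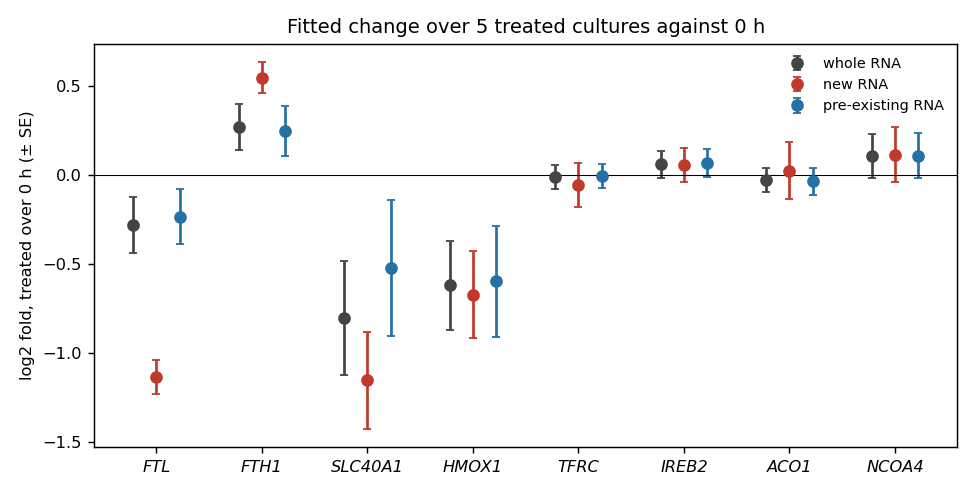
Fitted log2 fold of the 5 treated cultures against 0 h for each member in whole, new and pre-existing RNA, with the standard error, calculated back from the test, as bars. New RNA of FTL (-1.14), SLC40A1 (-1.15) and FTH1 (0.55) passed the test, and no fold of whole or pre-existing RNA did.

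The new share, the percentage of a gene's counts that was new, separates long-lived from quickly replaced messages only where levels are steady. It also requires that new molecules were called equally well for each gene. New FTL and FTH1 RNA changed under dexamethasone while whole RNA lagged, so sums over cultures do not rank message lifetimes. Over all A549 cultures with 2 h of S4U, the order from low to high was FTL 4.55%, FTH1 8.11%, TFRC 11.03%, ACO1 13.8%, NCOA4 20.7%, HMOX1 28.3%, IREB2 34.7% and SLC40A1 40.7%. For these sums over 6 cultures, the exact Clopper-Pearson 95% intervals of neighbours did not overlap. They cover counting error only, and the order was not the same in every culture. FTL (7.16%) was above FTH1 (6.94%) at 0 h, and HMOX1 (19.0%) under NCOA4 (20.2%) at 4 h. SLC40A1 was under IREB2 at 2 h (31.6 and 32.6%) and 4 h (32.0 and 33.9%), and HMOX1 (34.9%) was level with IREB2 (34.8%) at 8 h. The intervals of each of these pairs overlapped within the culture. The median of 11527 genes with at least 1000 whole counts was 26.3%, and 3.37% of these genes had a lower share than FTL and 11.9% a lower one than FTH1. A549 cells without S4U were not analysed here, and the rate of false new calls in that line is unknown.

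By culture, the new share of FTL was 7.16% at 0 h and 3.42, 3.16, 4.02, 4.49 and 4.74% at 2 to 10 h. That of FTH1 was 6.94% and then 9.09, 8.62, 8.86, 7.91 and 7.33%. The ferritin genes thus had nearly the same share at 0 h and were furthest apart at 2 and 4 h. SLC40A1 went from 48.9% to 31.6 and 32.0% at 2 and 4 h and then 45.5, 43.5 and 38.2%, and HMOX1 from 29.1% to 22.6 and 19.0% and then 34.3, 34.9 and 30.5%. For both, the lowest shares were at 2 and 4 h. IREB2 stayed between 32.6 and 37.8%, NCOA4 between 18.4 and 22.5%, ACO1 between 12.3 and 16.1% and TFRC between 8.67 and 12.4%.

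In the 913 labelled HEK293T cells, given S4U for 6 h, FTL was at 13.9% new (12.5 to 15.4, 2302 whole counts) and FTH1 at 14.4% (12.5 to 16.5, 1216 counts). These shares overlapped each other and stood lowest of the members. ACO1 followed with 39.0%, HMOX1 with 46.5% of 43 counts (31.2 to 62.3), TFRC with 68.4%, NCOA4 with 81.0% and IREB2 with 84.7%. All 13 SLC40A1 counts were new (75.3 to 100.0%), which places it no more precisely than above that lower bound. The median of 7357 genes with at least 200 counts was 71.5%, with 2.03% of them under FTL and 2.41% under FTH1. In cells with iodoacetamide but no S4U the shares were 0.897% for FTL, 1.59% for FTH1, 0.897% for TFRC, 1.71% for ACO1, 0.869% for NCOA4, 0.758% for HMOX1 and 1.33% for IREB2, and 3 of 18 counts for SLC40A1. The line and the labelling time both differ from A549, so the values are given side by side without a comparison.

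**Figure D5:**
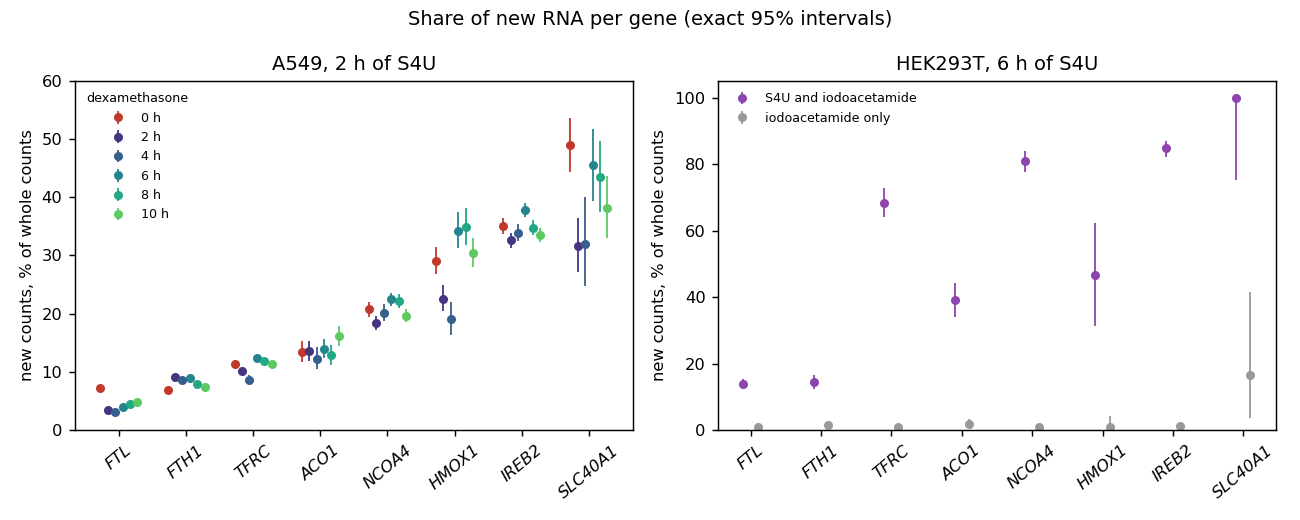
New counts as a percentage of whole counts per gene, with exact Clopper-Pearson 95% intervals, in each A549 culture (left, 2 h of S4U) and in HEK293T cells with S4U and iodoacetamide or iodoacetamide only (right, 6 h of S4U). FTL and FTH1 have low shares in both lines, and the iodoacetamide-only shares are under 2% except for SLC40A1, with 3 new of 18 counts.

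In the mixture, whole RNA of the members could also be compared between cells with and without S4U. This test was added after its values were seen. It used 8 libraries (each line with and without S4U and iodoacetamide), with 3 residual degrees of freedom. Each labelling group was a single mixture of both lines as far as the labels show, so human and mouse libraries of a group may not be independent. Whether the parts with and without iodoacetamide were labelled as separate cultures is not known here. They too may not be independent replicates of S4U, and p-values below may then be too small. TFRC was 68.3 and 67.7 CPM in HEK293T with S4U and 115.8 and 106.6 CPM without, and 137 and 143 CPM against 292 and 290 CPM in NIH/3T3. The S4U libraries were lower in both lines, with and without iodoacetamide, and the log2 difference was -0.89 ± 0.09 (edgeR adjusted p = 4.37e-05). Of 11319 human and mouse gene pairs tested, 10.2% were called, 5.71% lower and 4.53% higher. Of the 7 members in this fit, 2 were higher and 2 lower. FTH1 was higher by 0.31 ± 0.06 (0.00805) and FTL by 0.26 ± 0.07 (0.0250). IREB2 was lower by 0.37 ± 0.10 over both lines (0.0285), a call that NIH/3T3 alone did not give (-0.11, 0.304). HMOX1 did not pass over both lines (-0.23, 0.452), and in HEK293T alone was -0.86 (0.000658). All A549 cultures had S4U, so a similar difference there cannot be told apart from the level of the line. In a fit with a further term, and so fewer residual degrees of freedom, the S4U effect differed between the lines for TFRC, IREB2 and HMOX1. The log2 differences (NIH/3T3 minus HEK293T) were -0.38, 0.53 and 1.02, where 9.14% of pairs passed. Each labelling group gave a single library per line, so these calls rest mostly on spread estimated over all genes.

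Around the members, 78 further iron genes in 6 lists gave 2 higher and 5 lower of 67 tested in new RNA (10.4%, against 6.0% of all genes), 1 higher and 1 lower of 72 in whole RNA (0.878% of all genes) and 0 of 71 in pre-existing RNA (0.116% of all genes). The median log2 fold in new RNA was -0.13, against 0.01 over all genes. The 6 lists, regulators included, were chosen with earlier results of these data known. Their shares describe these genes and are no independent test. The 10 import genes tested had a median log2 fold of -0.36 in new RNA, so the gene named next ran against its list. In the import list, 1 of 10 passed in new RNA: SLC39A14, a carrier of iron not bound to transferrin, rose by 0.90 ± 0.18 (edgeR adjusted p = 0.0169), a call lost without the 6 h culture (0.0501). In the heme list of 16, FLVCR2, a heme and choline transporter, rose by 2.95 ± 0.24 in new RNA (0.000178), and ABCG2, a porphyrin exporter, fell by 0.65 (0.0495), a call lost without the 4 h (0.0925), 6 h (0.110) or 8 h (0.103) culture. In whole RNA FLVCR2 rose by 2.46 (0.0479), which did not hold with total counts only (0.0515) or without the 4 h (0.124), 6 h (0.132), 8 h (0.106) or 10 h (0.0821) culture. Of 22 mitochondrial iron genes, SLC25A37, the mitoferrin that carries iron into mitochondria, fell by 0.57 ± 0.10 in new RNA (0.0101). In whole RNA SLC39A14 (0.76, 0.272) passed with DESeq2 (0.0238) and without the 2 h culture (0.00161), and SLC25A37 (-0.46, 0.256) without the 2 h culture (0.00708).

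None of the 2 export genes tested in new RNA passed, and the smallest p was that of CP, the ferroxidase ceruloplasmin, at 1.36 ± 0.53 (edgeR adjusted p = 0.205). None of the 9 sensing and turnover genes passed, with FBXL5, the ligase subunit that marks IREB2 protein for degradation, at -0.31 ± 0.11 (0.175). CP passed with no low-count filter (0.0362) and FBXL5 without the 2 h culture (0.0406). Of 8 regulators, 3 fell in new RNA, where 2.18% of all genes were lower: MAFK by 1.32 ± 0.24 (0.0109), MAFG by 0.95 ± 0.11 (0.00145) and NFE2L2 by 0.49 ± 0.09 (0.0151). NFE2L2 encodes NRF2, and MAFG and MAFK its small Maf partners. The NFE2L2 call was lost without the 6 h culture (0.0501). In whole RNA MAFG alone of these passed (-0.94, adjusted p = 0.0320), and not without the 4 h (0.0649), 6 h (0.112), 8 h (0.0969) or 10 h (0.0637) culture. Whole NFE2L2 (-0.54, 0.0514) passed with total counts only (0.0498), with no low-count filter (0.0122), with DESeq2 (0.00126) and without the 2 h culture (0.0129). Whole MAFK (-1.32, 0.155) passed with no filter (0.0329) and without the 2 h culture (0.000312).

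Of 26 NRF2 targets other than the members, 7 fell and 0 rose in new RNA, with a median log2 fold of -0.37, against 2.18% of all genes lower, 3.82% higher and a median of 0.01. This list too was chosen with earlier results of these data known, so the contrast with all genes is no independent test. In whole and pre-existing RNA 0 passed, against 0.878% and 0.116% of all genes, while whole SLC7A11 (0.0293) and GCLM (0.00722) passed edgeR without the 2 h culture. The largest falls were SLC7A11, the cystine carrier, by 1.39 (edgeR adjusted p = 0.0480), GCLM, a subunit of the enzyme that starts glutathione synthesis, by 0.86 (0.0453), and NQO1, a quinone reductase, by 0.69 (0.00632). The SLC7A11 call did not hold with DESeq2 (0.142) or without the 4 h (0.0708), 6 h (0.116), 8 h (0.0978) or 10 h (0.0717) culture, nor the GCLM call without the 4 h (0.0708), 6 h (0.105), 8 h (0.0935) or 10 h (0.0592) culture. Of the members, FTL, FTH1 and HMOX1 are also known NRF2 targets. FTL fell in new RNA and FTH1 rose, while HMOX1 was lower without passing (-0.67, edgeR adjusted p = 0.177).

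The genes closest in time course were found by the root mean square difference of log2 new CPM over the 6 cultures, each gene centred on its mean, among 8089 genes with at least 1000 new counts. For FTL they were JUND (0.033), FRMD5 (0.071), MAFG (0.081), KRT80 (0.082) and HOXA3 (0.084). For FTH1 they were SLC35D2 (0.032), LLGL2 (0.034), HSD17B4 (0.036), LDHA (0.038) and DAPK1 (0.039). JUND, a subunit of the AP-1 transcription factor, went from 77.1 CPM at 0 h to 34.3, 31.2, 30.4, 33.5 and 34.6 CPM. LDHA, which makes lactate, went from 349 CPM to 484, 485, 475, 481 and 462 CPM.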

How the data were processed

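Whole and new RNA were measured in 2 samples, each a pool of cultures told apart by the deposited cell annotation. Per the submitters' processing notes, the tools were STAR 2.5.2b, Trim Galore 0.4.1, Picard 1.105 and SAMtools 1.3, and the builds mm10 and hg19. The sources used here do not give how duplicates were collapsed or new molecules called. The deposited values are raw, unnormalized counts by gene and cell. The deposited fraction of mutated reads per mixture cell was not analysed here, and the deposited doublet score of A549 cells reached 0.191 at most. No further cell filter or doublet caller was applied, and cells without a labelling group (100) were left out.

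Counts were summed per culture, 6 for A549 with 28870594 to 43084614 whole counts, so that cells were never replicates. New counts never exceeded whole counts (0 entries), and pre-existing RNA also holds new molecules that were not called. Tests were quasi-likelihood tests of edgeR 4.0.16 (R 4.3.3) with TMM and filterByExpr (minimum count 10), Benjamini-Hochberg adjusted over all genes tested at 0.05: treated against 0 h (4 residual degrees of freedom), a slope per hour over the treated cultures (3), and new against pre-existing RNA with a culture term (12 libraries, 4). The spread includes change over time. edgeR draws the spread of each gene toward that of all genes, so small p-values rest on more than the residual degrees of freedom given. CPM values use total counts. Each standard error (±) of an edgeR fold or slope was calculated back from the estimate and its F statistic, so it restates the test. Alternatives were other size factors, no filter, DESeq2 1.42.0, whole RNA scaling of new counts, summed ferritin copies, and each treated culture left out. Scripts were tested on simulated data.

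Members and lists were chosen with earlier results of these data known. By rule, the text names all 8 members, up to 3 genes per list with the largest called fold (or the smallest p where none passed), and the 5 genes most like FTL and FTH1. Of the ferritin copies with at least 100 whole counts, only those with the most whole or new counts are named.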

Additional observations from a re-analysis of the deposited data

Results flagged for a closer look

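Among the 5 treated A549 cultures, new TFRC RNA at 4 h was 96.5 CPM, apart from the other treated cultures, which lay between 111.9 and 118.0 CPM. Of 24 sets of treated cultures tested (8 genes in 3 kinds of RNA), it was the only one flagged as holding an outlying culture. The flag does not rank by fold: new SLC40A1 RNA at 4 h was 8.35 CPM, and its next lowest treated culture 12.4 CPM. The 24 sets are not independent, since whole RNA is the sum of new and pre-existing RNA and the cultures are shared. How many such sets chance would give was not tested. The 4 h culture also had the lowest total counts and the lowest new SLC40A1 and HMOX1 levels. Whether its depth has a part in the value was not tested.

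In the mixture, the difference between cells with and without S4U was not the same in the human and the mouse line for 3 members. Taken as NIH/3T3 minus HEK293T, the log2 difference of the S4U effects was -0.38 ± 0.11 for TFRC (edgeR adjusted p = 0.0132), 0.53 ± 0.11 for IREB2 (0.000107) and 1.02 ± 0.25 for HMOX1 (0.00189). Of all 11319 gene pairs tested, 9.14% passed in this comparison. Each labelling group gave a single library per line, so these p-values rest mostly on spread estimated over all genes and not on replicate cultures.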

How the results depend on the processing

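Over the members, 347 results under other settings were computed, of which 317 kept their direction and their side of the threshold, 8 lost and 7 gained a call, and 15 changed sign. Of 252 results of the other named genes, 216 kept both, 23 lost and 13 gained a call, and 0 changed sign. The cause of each change was not tested.

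The number of genes called against 0 h in whole RNA was 201, and 451 with no low-count filter, 781 with DESeq2 and 75 to 1600 when 1 treated culture was left out. In new RNA it was 1050, and 629 to 2022 with 1 culture left out. In pre-existing RNA it was 24, and 61 with no filter, 183 with DESeq2 and 5 to 767 with 1 culture left out. The highest of each range came without the 2 h culture. Slopes in whole RNA numbered 2715, and 1414 to 2569 with 1 culture left out, and in new RNA 1261, and 506 to 1164. New against pre-existing RNA called 0 genes, and 183 with no filter, 19 with DESeq2 and 0 to 36 with 1 culture left out. Without the replicate block, that is without the culture term that pairs new and pre-existing RNA of the same cells, the FTL difference was -0.88 (adjusted p = 1.0), and 0 genes passed, so it changed no other call. The new share of TFRC in A549 was 10.7% in cells of middle depth, against 11.03%.

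Sign changes were mostly around 0. Against 0 h, whole TFRC ran from -0.020 to 0.0030 with 1 culture left out, pre-existing TFRC from -0.014 to 0.0089 and new ACO1 from -0.034 to 0.059. Pre-existing TFRC was 0.0019 with RLE size factors and 0.00037 with no filter, and with total counts only new IREB2 was -0.011 and new ACO1 -0.043. With 1 culture left out the new RNA slope of FTL ran from -0.018 to 0.031 and that of FTH1 from -0.0076 to 0.00087 (2.7e-05 with no filter). The whole RNA slope ran from -0.081 to 0.112 for SLC40A1 and from -0.107 to 0.053 for HMOX1. Without the 2 h culture these slopes were positive, 0.112 (adjusted p = 0.0207) and 0.053 (0.310), against -0.030 and -0.031 with it. In NIH/3T3 alone the S4U difference of HMOX1 was 0.19, against -0.23 over both lines. Depth limits SLC40A1 most, with 49 new counts in 1 culture.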

Other observations

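In the 425 labelled NIH/3T3 cells the new share of the mouse genes after 6 h was 10.2% for Ftl1, 22.3% for Fth1, 49.0% for Aco1, 51.8% for Tfrc, 54.3% for Ncoa4 (35 counts), 63.4% for Ireb2 and 27 of 45 counts for Hmox1, against a median of 49.4% over 2795 genes. Slc40a1 had 0 counts in labelled NIH/3T3 cells. As in both human lines, the ferritin genes had the lowest shares of the members.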
